A study of Mus musculus with 12 samples.

Results

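The genes described here are 10 mouse orthologues of human 5q genes that have been studied in del(5q) myeloid disease: Apc, Csnk1a1, Ctnna1, Nr3c1, Npm1, Hspa9, Etf1, Brd8, Cdc25c and Sparc. They were chosen by name: a probe belonged to the set if its gene name on the array was that of a member. The rule found 31 of the 41174 probes of the array, and all 10 genes entered the test among 15062 genes. RNA of PUER cells was measured on 12 one-colour arrays, 3 in each of 4 groups: Hnrnpa0 shRNA cells after 24 h in 2 nM 4-hydroxytamoxifen (4-OHT), control vector cells after the same treatment, Hnrnpa0 shRNA cells before 4-OHT, and control vector cells before 4-OHT. PUER is a mouse myeloid line derived from cells without the transcription factor PU.1. The line depends on IL-3, and PU.1 was given back to it joined to an estrogen receptor domain, so that 4-OHT switches PU.1 on and the cells start to mature. Both vectors were retroviral and were sorted on GFP, and separate clones were used for each vector. All groups therefore lack native PU.1 and carry the fusion. No group is labelled as carrying a 5q deletion: the only del(5q) gene that was manipulated is Hnrnpa0. The arrays set the remaining genes of this class in clones with lowered Hnrnpa0 against separate control vector clones.

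In del(5q) myelodysplastic syndrome and leukaemia, part of the long arm of chromosome 5 is lost from a homologue, and the genes within it are left at reduced dosage. Several members have been studied as haploinsufficient genes in blood cells. APC and casein kinase 1 alpha (CSNK1A1) work in the complex that marks beta-catenin for destruction, alpha-catenin (CTNNA1) links cadherins and beta-catenin to actin, and mortalin (HSPA9) is a mitochondrial chaperone. NPM1 is a nucleolar protein that is often mutated in acute myeloid leukaemia, NR3C1 is the glucocorticoid receptor, ETF1 releases finished proteins from the ribosome at stop codons, BRD8 is a bromodomain subunit of the NuA4/TIP60 acetyltransferase complex, CDC25C is a phosphatase that activates the mitotic kinase, and SPARC is a secreted matrix protein. The design places 8 of these mouse genes on chromosome 18 and Npm1 and Sparc on chromosome 11 (build mm7, the array design's own coordinates).

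Levels are log2 intensity minus the log2 of that array's 75th percentile, so 0 is the 75th percentile of the array, and a level of one probe cannot be set against that of another. Each gene was tested on its brightest probe that passed the filter, and a call is an adjusted p under 0.05 from limma with Benjamini-Hochberg adjustment over all 15062 genes. The shRNA target was lowered in the shRNA cells: Hnrnpa0 read 0.55 ± 0.09 in shRNA cells and 2.65 ± 0.07 in control cells after 4-OHT (SD, n = 3 each), and 1.502 ± 0.47 in shRNA cells and 3.05 ± 0.07 in control cells before it (adjusted p = 0.00511 after and 0.0127 before, limma). The arrays lay on 3 slides, 4 arrays to a slide. All treated shRNA arrays shared slide 3 with untreated shRNA replicate C, untreated shRNA replicates A and B shared slide 2 with treated control replicates B and C, and slide 1 carried the remaining control arrays, 1 treated (A) and 3 untreated. The vectors shared no slide within a treatment, so each vector difference below was also fitted with slide as a block. The 75th percentiles lay between 1196 and 2583, and each array had 50.3% to 55.7% of its spots well above background. Of 8 myeloid progenitor markers, 7 were above background on all 3 arrays of every group, and Cd34 on none. Of 8 monocyte and macrophage markers, all 8 rose with 4-OHT in shRNA cells and in control cells. The series design names separate clones for each vector and independent experiments. It does not settle whether the 3 arrays of a group came from 3 clones or from 3 cultures of a clone. The p-values therefore measure the spread between these arrays.

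Signal strength set what could be read for each gene. Csnk1a1, Etf1, Brd8, Apc, Nr3c1 and Cdc25c were well above background on all 12 arrays and saturated on none. Npm1, Hspa9 and Ctnna1 lay at the top of the scanner's range: the tested probe was saturated on 12, 9 and 7 arrays. Sparc lay at the bottom, with its brighter probe well above background on 4 of the 12 arrays.

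**Figure D1:**
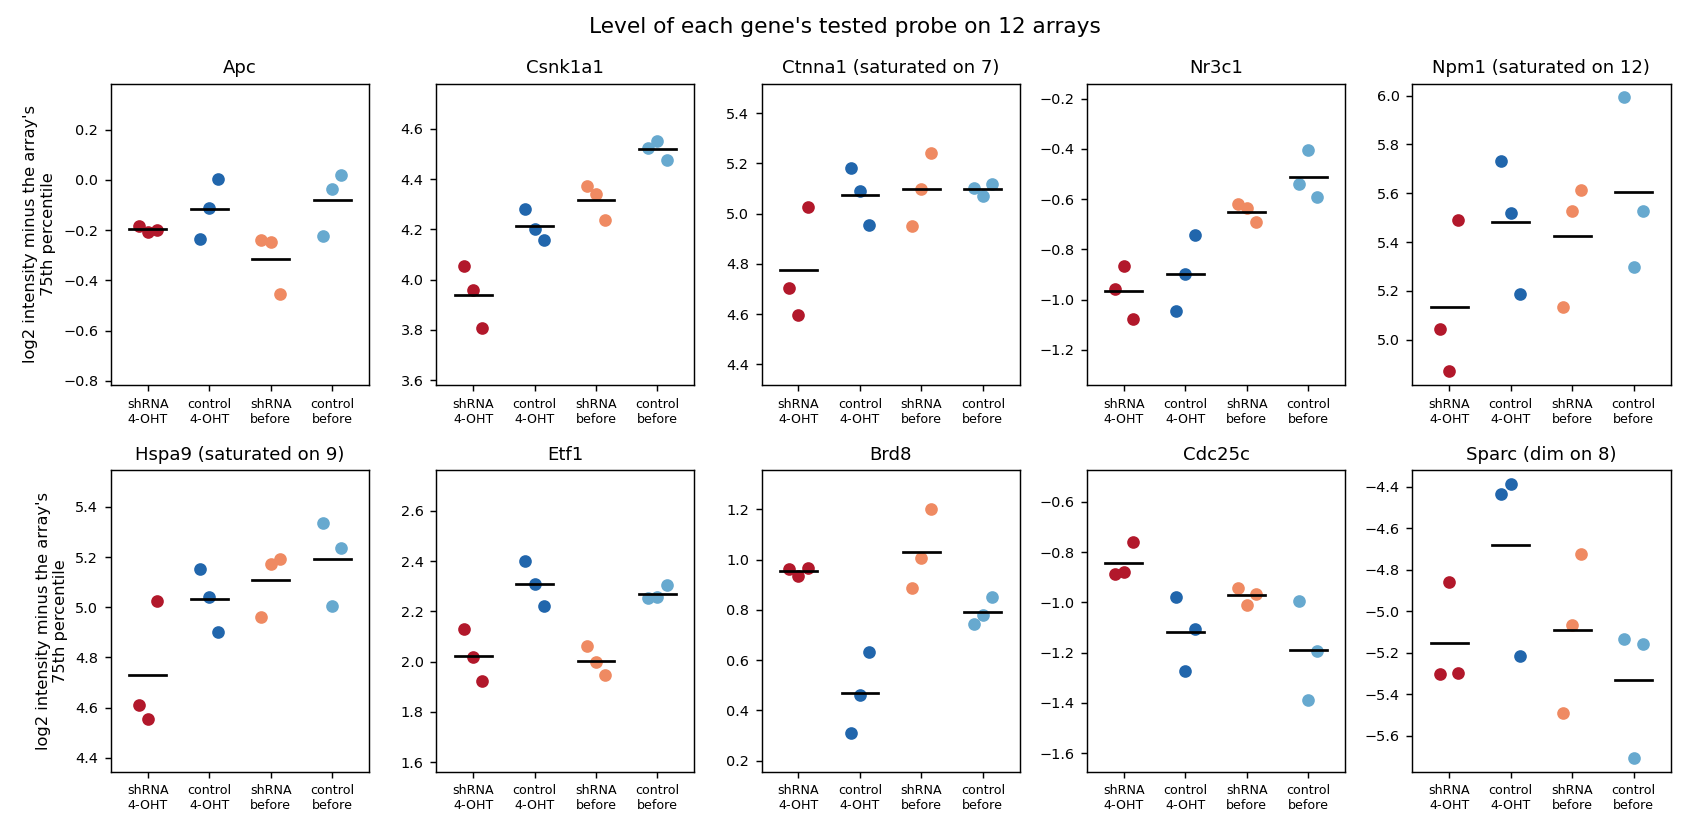
Level of the tested probe of each gene on every array (log2 intensity minus the array's 75th percentile; points are arrays A, B and C from left to right, bars are means of 3). Titles say on how many arrays a probe was saturated, or not well above background (dim). Csnk1a1 is lowest in shRNA cells after 4-OHT, at 3.81 to 4.05, and highest in control cells before it, at 4.48 to 4.55, while Etf1 and Brd8 part by vector.

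After 24 h of 4-OHT, Csnk1a1 and Etf1 were lower and Brd8 was higher in shRNA cells than in control cells, by 1.21-fold, 1.22-fold and 1.401-fold. These were the 3 of 10 members called in that comparison, where 16.7% of all genes tested were called, 7.85% higher and 8.82% lower. Averaged over both treatments the calls were 4 of 10, with Cdc25c higher by 1.19-fold in addition, against 28% of all genes, 12.4% higher and 15.6% lower. Before 4-OHT the count was 0 of 10 by limma, with 0.378% of all genes called (0.146% higher and 0.232% lower) and 4 of 10 members at an unadjusted p under 0.05, where 22.3% of all genes were. The 4-OHT response was called in 3 of 10 members in shRNA cells (Csnk1a1, Nr3c1 and the saturated Ctnna1) and 3 of 10 in control cells (Csnk1a1, Nr3c1 and Brd8), all of them lower after 4-OHT. The backgrounds were 38.3% of all genes in shRNA cells, 16.5% higher and 21.8% lower, and 40.5% in control cells, 17.5% higher and 23% lower. No member's 4-OHT response was called as different between the vectors: by limma 0 of 10 members were called and 0% of all genes, and 0 members had an unadjusted p under 0.05 where 791 genes did. The count between vectors after 4-OHT was 0 without treated control replicate B or shRNA replicate C, where 2.04% and 3.31% of all genes were called, and 1 without treated control replicate A or shRNA replicate B, where 7.49% and 4% were. With 10 genes in the set, the counts on all arrays lie within 2 genes of the background in every comparison. The split of all vector calls after 4-OHT moved with the scaling: 47.1% of the called genes were higher in shRNA cells in the main setting, 76.9% with median scaling, 30.9% with normexp background and 27.3% with the percentile over unflagged spots. Some maturation markers were called between the vectors at the same time, where 7.85% of all genes were higher and 8.82% lower. Of 7 tested progenitor markers 2 were higher in shRNA cells after 4-OHT, Gfi1 by 0.61 and Kit by 0.49, and 0 were lower. Of 8 monocyte and macrophage markers 2 were lower and 0 higher. With slide in the fit, 0 (random block) or 1 (fixed block) of all genes were called in that comparison. The part of maturation in the member differences was not tested.

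The median log2 change of the 10 members was -0.28 between vectors after 4-OHT, but 3 of the 10 are saturated and Sparc is near background. Over the 6 members that were well above background on all arrays and saturated on none, chosen after their values were seen, it was -0.08 after 4-OHT, where that of all genes tested was -0.04, and -0.17 before it, where that of all genes was -0.03. For the 4-OHT response the median of the 6 was -0.03 in shRNA cells (10 members -0.18, all genes -0.08) and -0.17 in control cells (10 members -0.08, all genes -0.07). Groups of 3 arrays did not overlap for 4 members between vectors after 4-OHT, 2 of them lower and 2 higher in shRNA cells, where 38.6% of all genes did not overlap (20.4% lower and 18.2% higher). Before 4-OHT they did not overlap for 5 members, 4 lower and 1 higher in shRNA cells, where the share of all genes was 32.5% (20.3% lower and 12.2% higher). The same held for 4 members for 4-OHT in shRNA cells, 2 lower and 2 higher, and for 3 in control cells, all lower after 4-OHT, where the shares of all genes were 51.5% (29.5% lower and 22% higher) and 50.9% (28.8% lower and 22.1% higher).

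**Figure D2:**
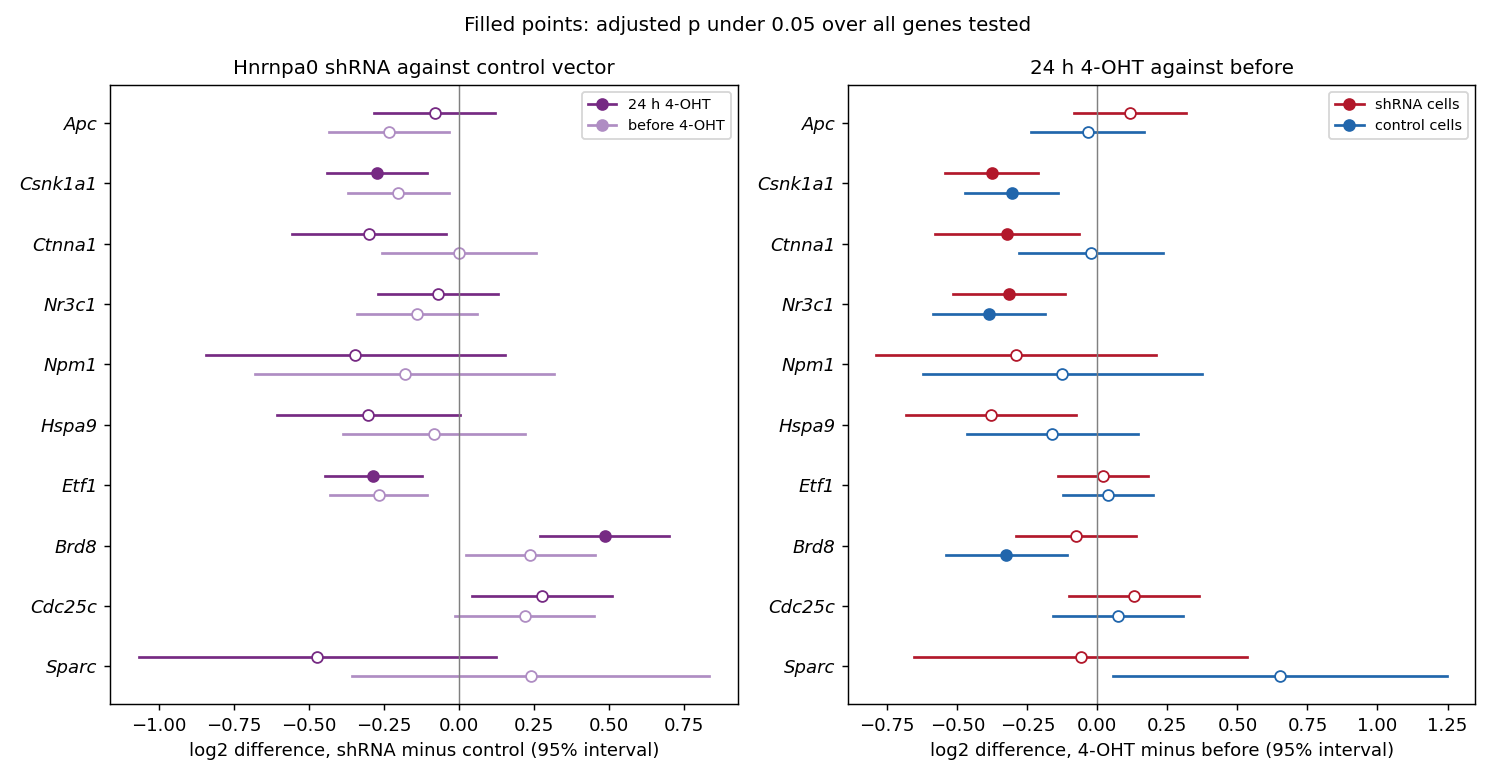
Log2 difference of each gene with its 95% interval from the fit, for shRNA minus control (left) and 4-OHT minus before (right). Filled points passed an adjusted p of 0.05 over all genes tested. Brd8 lies to the right and Csnk1a1 and Etf1 to the left of 0 between vectors, and Csnk1a1 and Nr3c1 lie to the left of 0 in both 4-OHT responses.

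Of the genes that act on beta-catenin, Csnk1a1 had the clearest pattern. Its tested probe (A_51_P453856, chromosome 18, 61977602 to 61977661, plus strand) read 4.05, 3.96 and 3.81 in shRNA cells and 4.28, 4.20 and 4.16 in control cells after 4-OHT. Before 4-OHT it read 4.37, 4.34 and 4.24 in shRNA cells and 4.53, 4.55 and 4.48 in control cells. Groups did not overlap in any of these 4 comparisons: shRNA cells lay below control cells at both times, and treated cells lay below untreated cells with both vectors. Between vectors the log2 level differed by -0.27 (SE 0.075, adjusted p = 0.0368) after 4-OHT and -0.20 (SE 0.075, adjusted p = 0.162) before it. The 4-OHT response was -0.38 (SE 0.075, adjusted p = 0.00251) in shRNA cells and -0.31 (SE 0.075, adjusted p = 0.00779) in control cells, and the difference of -0.07 between the responses had a 95% interval from -0.31 to 0.17.

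Csnk1a1 had 4 further probes, of which 3 also fell with 4-OHT in both vectors and none was called between vectors after 4-OHT. In the fit over all 22362 probes, 4 of its 5 probes were called in both responses, all lower, where 37.2% of all probes were called in shRNA cells (20.7% lower and 16.6% higher) and 39.7% in control cells (22.1% lower and 17.6% higher). The largest change was that of A_51_P451837, designed on a cDNA clone (61979683 to 61979742): -0.63 in shRNA cells (SE 0.057, adjusted p = 2.12e-05) and -0.68 in control cells (SE 0.064, adjusted p = 2.23e-05, with 1 treated control array left out as an outlier spot). The exception, A_52_P477752, read -0.18 in shRNA cells and -0.16 in control cells, with overlapping groups. With slide as a fixed block in the fit over probes, A_51_P451837 and A_51_P336491 passed in both responses (-0.58 and -0.39 in shRNA cells, -0.75 and -0.29 in control cells), A_52_P339722 in shRNA cells, and the tested probe in neither (adjusted p = 0.0554 in shRNA cells and 0.0971 in control cells). Between vectors after 4-OHT the tested probe was called and the others ranged from -0.12 to 0.16, A_51_P451837 lying below control cells without overlap after 4-OHT (-0.08) and before it (-0.13).

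Apc, the scaffold of the destruction complex, changed little on the tested probe. In shRNA cells it read -0.18, -0.21 and -0.20 after 4-OHT and -0.24, -0.25 and -0.45 before it. Control cells read -0.24, -0.11 and 0.0042 after 4-OHT and -0.22, -0.038 and 0.020 before it. The shRNA group lay below the control group before 4-OHT and overlapped it after, treated shRNA arrays lay above untreated ones, and no comparison was called: the vector differences were -0.08 (95% interval -0.28 to 0.12) after 4-OHT and -0.23 (-0.43 to -0.03) before it. Its 6 probes, of which 4 passed the filter, did not go one way. The probe A_51_P273378, on a cDNA clone (chromosome 18, 34697260 to 34697319), fell with 4-OHT in control cells by 0.37 (SE 0.099, adjusted p = 0.0126 over all probes, where 39.7% were called) and averaged 0.24 higher in shRNA cells (adjusted p = 0.0298, where 29.2% were called, 13.4% higher and 15.8% lower), while the tested probe averaged -0.16 between vectors. Apc also matched 2 probes that were well above background on no array.

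Of 21 other Wnt and beta-catenin regulators tested, 3 were higher and 4 lower in shRNA cells than in control cells after 4-OHT. For this and every later gene list, 7.85% of all genes were higher and 8.82% lower in that comparison. With 4-OHT, 16.5% of all genes rose and 21.8% fell in shRNA cells, and 17.5% rose and 23% fell in control cells. The Wnt co-receptor Lrp6 (-0.78, SE 0.203, adjusted p = 0.0315), the beta-catenin partner Tcf7l2 (-0.64, SE 0.154, adjusted p = 0.0252) and the receptor Fzd7 (-0.36, SE 0.093, adjusted p = 0.0319) were lower, and Btrc, the ubiquitin ligase subunit that recognises phosphorylated beta-catenin, was higher (0.38, SE 0.115, adjusted p = 0.0464). With 4-OHT, 3 of the 21 rose and 6 fell in shRNA cells and 3 rose and 4 fell in control cells. The co-receptor Lrp5 fell by 1.11 in shRNA cells and by 1.25 in control cells (adjusted p = 9.62e-07 and 3.18e-07), Tle3, a co-repressor, fell by 0.91 and 0.92, and the poly-ADP-ribosylating enzyme Tnks, which turns over axin, fell by 0.89 and 1.04. Tcf7l2 rose by 0.61 in both. Only 3 of 12 listed beta-catenin target genes passed the filter: Notum fell by 2.42 in shRNA cells and by 2.71 in control cells, Myc by 0.65 and 0.50, and Znrf3 by 0.78 in control cells.

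Ctnna1 has a single probe (A_51_P324572, chromosome 18, 35630576 to 35630635), which was saturated on 7 arrays, the 3 of treated shRNA cells among them. It read 4.70, 4.59 and 5.03 in shRNA cells and 5.18, 5.09 and 4.96 in control cells after 4-OHT, and 4.95, 5.10 and 5.24 in shRNA cells and 5.10, 5.07 and 5.12 in control cells before it. The groups overlapped in every comparison. The fit called it lower with 4-OHT in shRNA cells (-0.32, SE 0.12, adjusted p = 0.0494), but the group that reads lower is at the scanner's ceiling, so no fold is given, and with quantile normalization the difference was 0.020 (adjusted p = 0.8304).

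Among 11 tested partners of alpha-catenin in cell adhesion, 2 were higher and 0 lower in shRNA cells after 4-OHT: vinculin (Vcl), which binds alpha-catenin under tension, by 0.56 (SE 0.097, adjusted p = 0.0129) and beta-catenin (Ctnnb1) by 0.35 (SE 0.0903, adjusted p = 0.0306). With 4-OHT 4 of the 11 rose in each vector, and 1 fell in shRNA cells and 2 in control cells. Actn1, an actin cross-linker that binds alpha-catenin, rose by 1.61 in shRNA cells and by 1.75 in control cells (adjusted p = 2.73e-07 and 1.18e-07), Ctnnd1 (p120-catenin) by 0.59 and 0.82, and zyxin (Zyx) by at least 1.49-fold and 1.80-fold, its treated arrays being saturated. Afdn (afadin), a junction adaptor, fell by 0.81 in shRNA cells and by 1.00 in control cells.

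Nr3c1, the glucocorticoid receptor, fell with 4-OHT in both vectors. The tested probe (A_52_P63106, chromosome 18, 39789494 to 39789553, minus strand) read -0.96, -0.86 and -1.08 in shRNA cells after 4-OHT, against -0.62, -0.64 and -0.69 before it. In control cells it read -1.05, -0.90 and -0.74 after 4-OHT, against -0.54, -0.40 and -0.59 before it. Every treated array lay below every untreated array of its vector. The response was -0.32 (SE 0.0901, adjusted p = 0.0182) in shRNA cells and -0.39 (SE 0.0901, adjusted p = 0.00591) in control cells, and with slide as a fixed block -0.27 (adjusted p = 0.101) and -0.53 (adjusted p = 0.0068). The vector difference was -0.07 (95% interval -0.27 to 0.13) after 4-OHT, where the vectors overlapped, and -0.14 (-0.34 to 0.06) before it, where they did not.

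A brighter Nr3c1 probe, A_52_P138090 (39787242 to 39787301), was not tested because outlier marks left 9 arrays. On those it read 1.42, 1.36 and 1.31 in shRNA cells after 4-OHT, against 1.90 and 1.87 before it, and 1.41, 1.44 and 1.45 in control cells after 4-OHT, against 1.87 on the 1 array before it. Both remaining probes also had negative 4-OHT changes in both vectors, from -0.64 to -0.30, without a call. Of these, A_52_P254174 was lower in shRNA cells when averaged over treatment (-0.32, adjusted p = 0.02999 over all probes, limma). With slide as a fixed block that difference was 0.025 (adjusted p = 0.969). The dimmer A_51_P355693 averaged -0.48 between vectors and was not called.

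Of 10 glucocorticoid receptor target genes tested, 5 fell with 4-OHT in each vector, while 2 rose in shRNA cells and 3 in control cells. The phosphatase Dusp1 fell by 1.35 in shRNA cells, the transcription factor Klf9 by 1.30 in shRNA cells and 1.26 in control cells, and Ddit4, an inhibitor of mTOR complex signalling, by at least 2.40-fold and 2.27-fold, its untreated arrays being saturated. The decoy receptor Il1r2 rose by 5.32 in shRNA cells and 5.21 in control cells (adjusted p = 2.35e-09 and 2.42e-09). Between vectors after 4-OHT 0 of the 10 were higher and 2 lower in shRNA cells: Dusp1 by 0.64 (SE 0.12, adjusted p = 0.01405), and the scavenger receptor Cd163 by at least 1.84-fold, because it was not well above background in treated shRNA cells. Of 17 chaperones and co-regulators of the receptor, 2 rose and 2 fell with 4-OHT in shRNA cells, and 2 rose and 3 fell in control cells. Those that rose in both were the coactivators Ncoa3 (0.98 in shRNA cells and 1.23 in control cells) and Ncoa1 (0.68 and 0.71). The co-chaperone Fkbp5 fell by 0.41 in shRNA cells and the corepressor Ncor1 by 0.63 in control cells. Between vectors after 4-OHT, Ncor1 was higher in shRNA cells by 0.55, and the co-chaperone Ptges3 and Ncoa3 were lower by 0.47 and 0.23.

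Npm1 could not be quantified. Its tested probe (A_51_P467410, chromosome 11, 33104575 to 33104634) was saturated on all 12 arrays and its other probe, A_52_P732583, on 11. The unscaled intensity of the other probe varied only 1.07-fold over the arrays, from 60554 to 64676, whereas the 75th percentile that each array was divided by varied 2.16-fold. The scaled values of 5.04, 4.87 and 5.49 in treated shRNA cells and 5.73, 5.52 and 5.19 in treated control cells overlapped, and no difference was called. The genes with the most similar profile over the 12 arrays were Mgst2, Lrrc58 and Plin2 (r = 0.9996, 0.9991 and 0.9985), whose probes were also saturated on all 12 arrays. Of 19 other tested genes, listed as nucleolar proteins or partners of Npm1, 2 were higher in shRNA cells after 4-OHT. They were the helicase Ddx21, by 0.42 (adjusted p = 0.0249), and nucleostemin (Gnl3), by 0.33 (adjusted p = 0.0305), and 0 were lower. With 4-OHT, 1 of the 19 rose in both vectors, Nusap1, by 0.44 in shRNA cells and 0.37 in control cells. None fell in shRNA cells and 2 fell in control cells, Dkc1, of the box H/ACA particles, by 0.30 and Ctcf by 0.25. In shRNA cells the same pair read -0.22 and -0.17, not called.

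Hspa9 can be read from 1 of its 2 probes. The brighter, tested probe (A_51_P265869, chromosome 18, 35314121 to 35314180) was saturated on 9 arrays and read 4.61, 4.55 and 5.02 in shRNA cells and 5.15, 5.04 and 4.90 in control cells after 4-OHT. The groups overlapped and no vector difference was called, and since all 3 treated shRNA arrays were saturated the sign of the scaled difference is not a reading of Hspa9. The probe that was saturated on no array (A_52_P520687, 35315514 to 35316332) read 3.57, 3.50 and 3.55 in shRNA cells and 3.06, 3.05 and 3.18 in control cells after 4-OHT. There all 3 shRNA arrays lay above all 3 control arrays, with a difference of 0.44 (SE 0.094, adjusted p = 0.0187 over all probes, where 16.9% were called). Before 4-OHT that probe read 3.43, 3.47 and 3.74 in shRNA cells and 3.27, 3.17 and 3.40 in control cells, a difference of 0.27 that was not called. With slide as a random block the difference after 4-OHT was 0.33 (adjusted p = 0.216) and with slide as a fixed block 0.13 (adjusted p = 0.915).

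Of 21 tested partners of mortalin in mitochondrial protein import, folding and iron-sulfur assembly, 7 fell and 0 rose with 4-OHT in each vector, where 21.8% of all genes fell in shRNA cells and 23% in control cells. Among them were the protease Lonp1, by 0.41 in shRNA cells and 0.63 in control cells, the iron-sulfur assembly factor Isca1, by 0.49 and 0.56, and the protease Clpp, by 0.37 and 0.39. Pam16, of the import motor, fell by 0.33 in shRNA cells. Between vectors after 4-OHT the 1 of 21 called was Lyrm4, which binds the cysteine desulfurase of iron-sulfur synthesis: it was lower by 0.68 in shRNA cells (SE 0.18, adjusted p = 0.0303).

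Etf1, the translation release factor, was lower in shRNA cells and did not move with 4-OHT on its tested probe (A_52_P519882, chromosome 18, 35282105 to 35282164, minus strand). It read 2.13, 2.02 and 1.92 in shRNA cells and 2.40, 2.31 and 2.22 in control cells after 4-OHT. Before 4-OHT the levels were 2.06, 2.00 and 1.95 in shRNA cells and 2.25, 2.26 and 2.30 in control cells. All shRNA arrays lay below all control arrays of the same treatment. The difference was -0.29 (SE 0.073, adjusted p = 0.0291) after 4-OHT and -0.27 (SE 0.073, adjusted p = 0.0956) before it, and averaged -0.28 (SE 0.051, adjusted p = 0.00577). The 4-OHT response was 0.020 (95% interval -0.14 to 0.18) in shRNA cells and 0.039 (-0.12 to 0.20) in control cells.

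The other Etf1 probes behaved differently. A_52_P510986 (35279692 to 35279751) read 1.19, 1.10 and 1.07 in shRNA cells and 1.17, 1.21 and 1.10 in control cells after 4-OHT, and no comparison was called. A_52_P585350, designed on a cDNA clone (35305805 to 35305864), fell with 4-OHT by 1.52 in shRNA cells (SE 0.26, adjusted p = 0.00103 over all probes) and by 1.27 in control cells (SE 0.26, adjusted p = 0.00282), and passed in both with either slide block. It was a dim probe, well above background on 9 arrays, which included all 6 untreated ones. The mean of the 3 probes therefore fell with 4-OHT (-0.49 in shRNA cells and -0.42 in control cells), although the 2 brighter probes did not.

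Of 14 other termination and ribosome rescue factors tested, 1 was higher and 1 lower in shRNA cells after 4-OHT: the ribosome recycling factor Abce1 by 0.35 (adjusted p = 0.0274) and the nonsense-mediated decay factor Upf3a by -0.38 (adjusted p = 0.015). With 4-OHT 1 rose and 4 fell in shRNA cells, and 1 rose and 3 fell in control cells. The ribosome rescue pair Pelo and Hbs1l fell in both vectors, Pelo by 0.25 in shRNA cells and 0.31 in control cells and Hbs1l by 0.24 and 0.25. Gspt1, the GTPase partner of Etf1, rose by 0.26 in shRNA cells (SE 0.07, adjusted p = 0.0145).

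Brd8 was higher in shRNA cells after 4-OHT. The tested probe (A_52_P404239, chromosome 18, 34979199 to 34979258, minus strand) read 0.96, 0.94 and 0.97 in shRNA cells and 0.31, 0.46 and 0.63 in control cells after 4-OHT. Before 4-OHT it read 0.89, 1.01 and 1.201 in shRNA cells and 0.75, 0.78 and 0.85 in control cells. The shRNA arrays lay above the control arrays at both times, and control cells fell with 4-OHT without overlap while treated and untreated shRNA cells overlapped. The difference between vectors was 0.49 (SE 0.097, adjusted p = 0.0167) after 4-OHT and 0.24 (SE 0.097, adjusted p = 0.188) before it. Over 27 alternatives the difference before 4-OHT ranged from -0.08 to 0.31, so its sign was not stable. With 4-OHT Brd8 changed by -0.08 in shRNA cells (95% interval -0.29 to 0.14) and fell by 0.32 in control cells (SE 0.097, adjusted p = 0.0212), and the difference of 0.25 between those responses (95% interval -0.06 to 0.55, adjusted p = 0.956) was not called.

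The 4 Brd8 probes split between vectors and ran together with 4-OHT. A_52_P676492 was higher in shRNA cells when averaged over treatment (0.55, SE 0.17, adjusted p = 0.0303 over all probes), whereas A_51_P442458 and A_51_P194984, both designed on cDNA clones, had vector differences of -0.09 and -0.04 after 4-OHT and -0.29 and -0.26 before it, none called. In control cells all 4 probes had negative 4-OHT changes, from -0.65 to -0.32. The tested probe and A_51_P194984 (-0.65, SE 0.17, adjusted p = 0.0128) were called there. With slide as a fixed block 3 of the 4 were called in control cells, at -0.48, -0.95 and -1.07.

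Of 17 other NuA4/TIP60 subunits tested, 1 was higher and 3 lower in shRNA cells after 4-OHT. The scaffold ATPase Ep400 was lower by 0.90 (SE 0.197, adjusted p = 0.0202), the scaffold Epc1 by 0.46 and Actl6a, an actin-like subunit, by 0.30, and Mbtd1 was higher by 0.39 (SE 0.091, adjusted p = 0.0234). With 4-OHT 0 rose in either vector: Ruvbl2, an ATPase shared with other chromatin complexes, fell by 0.65 in shRNA cells and by 0.73 in control cells (adjusted p = 0.000137 and 5.11e-05), and Mrgbp and Mbtd1 fell by 0.33 and 0.32 in control cells.

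Cdc25c, the phosphatase at entry into mitosis, passed only as an average over both treatments. The tested probe (A_51_P279575, chromosome 18, 35119875 to 35120741, minus strand) read -0.89, -0.88 and -0.76 in shRNA cells and -0.98, -1.27 and -1.11 in control cells after 4-OHT. Before 4-OHT it read -0.94, -1.01 and -0.97 in shRNA cells and -0.99, -1.39 and -1.19 in control cells. The groups did not overlap after 4-OHT and overlapped before it. Neither time alone was called (0.28, SE 0.105, adjusted p = 0.0926 after and 0.22, SE 0.105, adjusted p = 0.244 before), and the average of 0.25 was (SE 0.074, adjusted p = 0.0316). That call was lost in 15 of 26 alternatives, among them normexp background, median scaling and the removal of control replicate B or of any untreated shRNA array, with adjusted p between 0.0162 and 0.4279 over the alternatives. Its other probe gave 0.08 after and 0.14 before 4-OHT, with no call.

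Of 19 other G2/M regulators tested, 5 were higher and 1 lower in shRNA cells after 4-OHT, where 7.85% of all genes were higher and 8.82% lower. The related phosphatase Cdc25a was higher by 0.58 (SE 0.072, adjusted p = 0.0074), the mitotic kinase Cdk1 by 0.49 (SE 0.1497, adjusted p = 0.0490), and Wee1, which inhibits that kinase, by 0.41 (SE 0.078, adjusted p = 0.0156). The 14-3-3 protein Ywhaz was lower by 0.54. With 4-OHT 3 rose and 2 fell in shRNA cells and 4 rose and 4 fell in control cells: Cdc25a fell by 0.56 in shRNA cells and 0.84 in control cells, the kinase Mapkapk2 fell by 0.58 and 0.69, and Mastl, a mitotic kinase, rose by 0.60 and 0.59.

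Sparc was near background. Its tested probe is the oligonucleotide below, shown because it is the source of every Sparc value that rose above background. It is 60 bases long with 53.3% G and C, and the design places it at chr11:55352704-55355361 on the minus strand of build mm7, a span of 2658 bases that is longer than the probe.
A_52_P101852: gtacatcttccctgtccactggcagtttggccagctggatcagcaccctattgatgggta

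That Sparc probe read -5.30, -4.86 and -5.30 in shRNA cells and -4.43, -4.39 and -5.22 in control cells after 4-OHT, and -5.49, -5.06 and -4.73 in shRNA cells and -5.13, -5.71 and -5.16 in control cells before it. It was well above background on 1 shRNA array and 2 control arrays after 4-OHT, on 1 shRNA array before it and on 0 control arrays before it. The groups overlapped in all 4 comparisons, and no comparison was called. The other Sparc probe was well above background on no array. Of 7 stromal markers, Col1a2 and Pdgfrb were above background in every group, and Col1a1, Col3a1, Dcn and Pdgfra on no array. Of 9 tested SPARC relatives and matrix partners, 2 were higher in shRNA cells after 4-OHT, Col1a2 by 0.83 (SE 0.21, adjusted p = 0.0302) and Smoc1 by 0.32 (SE 0.098, adjusted p = 0.0484). With 4-OHT 2 rose and 4 fell in each vector: the matrix proteins Tgfbi (3.98 in shRNA cells and 3.90 in control cells) and fibronectin (Fn1, at least 4.26-fold and 2.46-fold) rose, and thrombospondin (Thbs1) fell by 2.08 and 1.85.

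**Figure D3:**
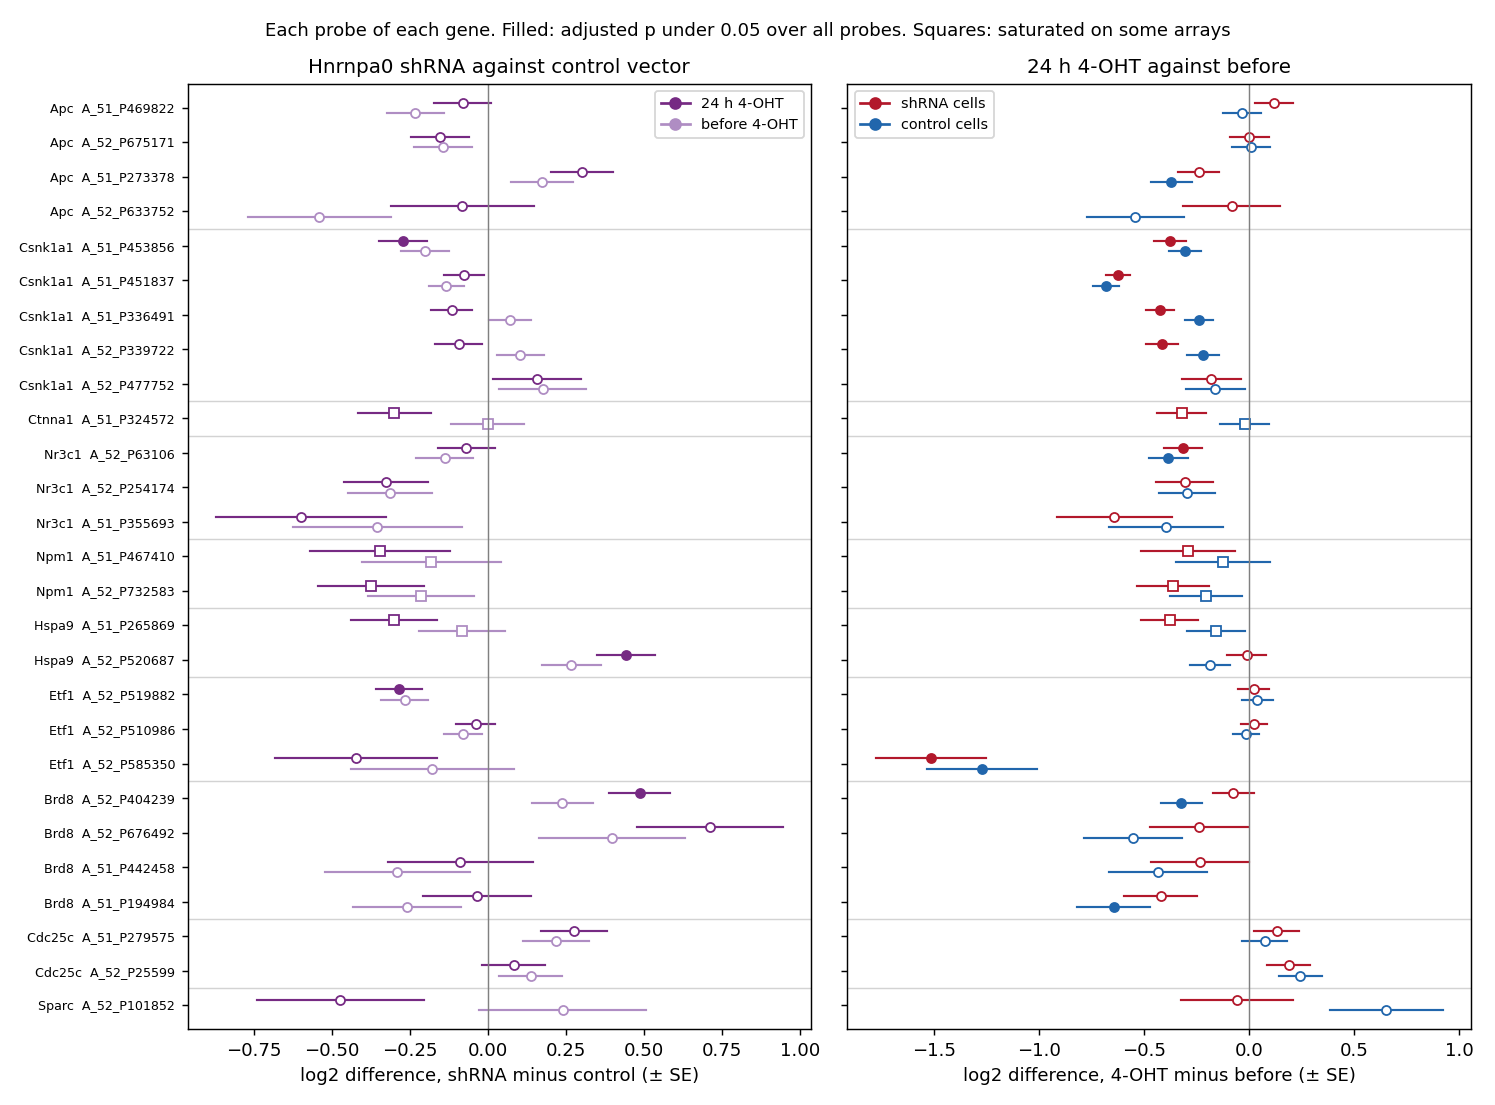
Log2 difference ± SE of every probe of the 10 genes that passed the filter, for shRNA minus control (left) and 4-OHT minus before (right). Filled points passed an adjusted p of 0.05 over all 22362 probes, and squares are probes saturated on some arrays. The 5 Csnk1a1 probes all lie left of 0 with 4-OHT, the unsaturated Hspa9 probe lies at 0.44 between vectors after 4-OHT, and the Etf1 probe A_52_P585350 stands apart at -1.52 and -1.27.

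Over the members' 27 probes that passed the filter, 2 were called higher and 2 lower in shRNA cells after 4-OHT, where 8.14% of all probes were higher and 8.8% lower. Before 4-OHT 0 of the 27 were called between vectors by limma, where 0.362% of all probes were called (0.152% higher and 0.21% lower), and 8 had an unadjusted p under 0.05, where 23.3% of all probes did. For the difference between the 4-OHT responses 0 of the 27 were called, where 1 of all probes, or 0.00447%, was called, and 0 had an unadjusted p under 0.05, where 5.12% of all probes did. With 4-OHT 6 probes in shRNA cells and 9 in control cells were called, all lower. Of all probes 37.2% were called in shRNA cells (20.7% lower and 16.6% higher) and 39.7% in control cells (22.1% lower and 17.6% higher). Probes of a gene share its RNA and are not replicates.

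No vector difference of a member remained called with slide in the fit. Over all alternatives after 4-OHT, the call was lost in 17 of 27 for Csnk1a1, 12 of 27 for Etf1 and 6 of 27 for Brd8. After 4-OHT, Csnk1a1 was -0.23 with slide as a random block (adjusted p = 0.27) and -0.12 with slide as a fixed block (adjusted p = 0.904), Etf1 was -0.25 (adjusted p = 0.229) and -0.16 (adjusted p = 0.858), and Brd8 was 0.39 (adjusted p = 0.191) and 0.15 (adjusted p = 0.858). The averaged difference of Cdc25c was 0.29 (adjusted p = 0.153) and 0.38 (adjusted p = 0.4279), and that of Brd8 was 0.27 (adjusted p = 0.138) and 0.036 (adjusted p = 0.919). Across all genes, the vector calls after 4-OHT were 0 with slide as a random block and 1 with slide as a fixed block, by limma, with 2615 and 913 genes at an unadjusted p under 0.05. The vector calls of the partner and marker lists share that limit. With slide as a fixed block, the treated shRNA arrays are tied to the other slides only through untreated shRNA replicate C. The part of slide in the vector differences cannot be told apart from that of the vector within a treatment. Neither can the part of the separate clones be told apart from that of lowered Hnrnpa0.

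The 4-OHT responses had arrays of both times on a slide in each vector. On slide 1, with 1 treated and 3 untreated control arrays, Nr3c1 was -0.53 (adjusted p = 0.0478), Brd8 -0.48 (adjusted p = 0.037) and Csnk1a1 -0.24 (adjusted p = 0.125). On slide 3, with 3 treated arrays and 1 untreated shRNA array, Csnk1a1 was -0.30 (adjusted p = 0.211) and Nr3c1 -0.27 (adjusted p = 0.2098). With slide as a random block, Csnk1a1 and Nr3c1 remained called in both vectors and Brd8 in control cells. With slide as a fixed block, Csnk1a1 passed in shRNA cells (-0.30, adjusted p = 0.0493) and not in control cells (-0.24, adjusted p = 0.0896), while Nr3c1 and Brd8 passed in control cells. In these fits a group of 1 array is taken to vary like the others.

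**Figure D4:**
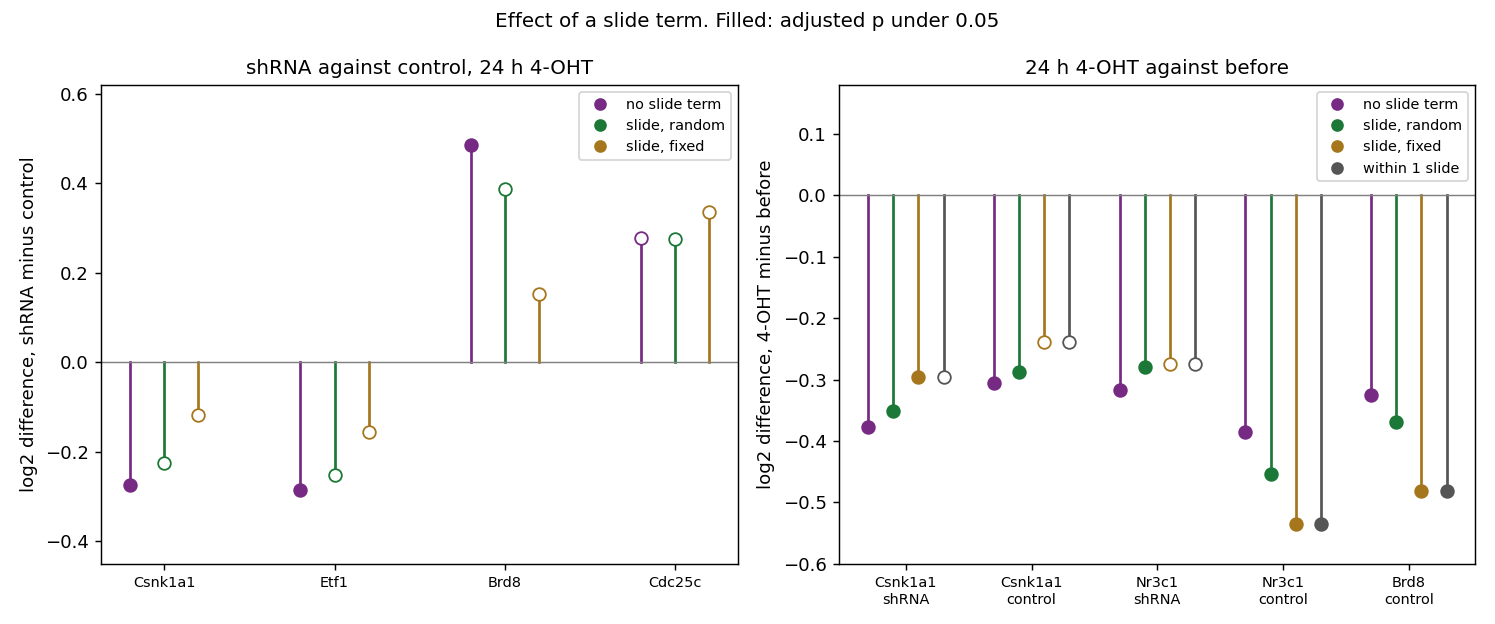
Log2 differences without a slide term, with slide as a random or a fixed block and, for 4-OHT, within the slide that holds both times. Filled points passed an adjusted p of 0.05. The vector differences of Csnk1a1, Etf1 and Brd8 are smaller with slide in the fit (Brd8 0.49, 0.39 and 0.15). That of Cdc25c is called in none of the fits. With 4-OHT, Nr3c1 and Brd8 in control cells stay below 0 in every fit shown, and called with slide as a random or a fixed block.

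Genes with the most similar profile to each unsaturated member over the 12 arrays are given as a description, since the arrays share the 4 groups and the slides. They were Nrip1 for Apc (r = 0.927), Arl6 for Csnk1a1 (r = 0.985), Tbl1x for Nr3c1 (r = 0.966), Ndfip1 for Etf1 (r = 0.982), Vcl for Brd8 (r = 0.9902) and Trap1 for Cdc25c (r = 0.948), out of 14371 genes measured on every array. No gene reached r = 0.80 with Sparc, the highest being 0.797.

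**Figure D5:**
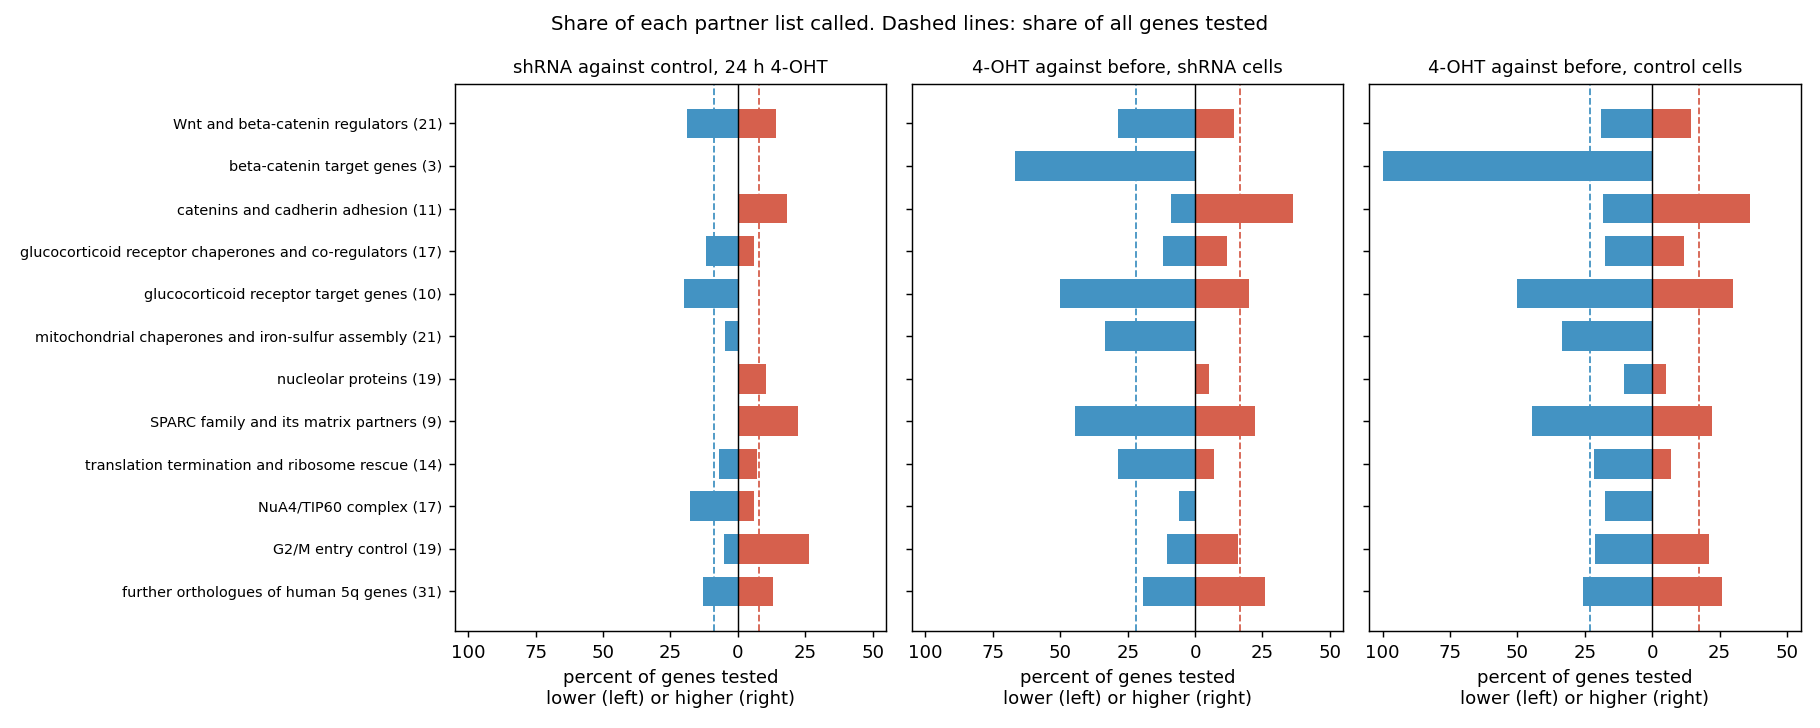
Share of the tested genes of each partner list that were called higher (right, red) or lower (left, blue) in 3 comparisons, with the number tested in brackets and dashed lines at the share of all genes tested. With 4-OHT, 7 of 21 mitochondrial chaperone and iron-sulfur genes are lower and 0 higher in each vector, and 1 is lower between vectors. NuA4/TIP60 subunits also have 0 higher calls with 4-OHT, and 1 of 17 is lower in shRNA cells and 3 in control cells. Of 19 G2/M regulators 5 are higher and 1 lower in shRNA cells after 4-OHT.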

How the data were processed

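Each sample is one array. Per the file headers, the authors read the arrays (design 014868) with Agilent Feature Extraction 9.5.3.1 (9.5 in the submitters' processing notes), which subtracted background, so that each deposited spot is an intensity on a linear scale that was not normalized across arrays. The authors' deposited series table departs from these intensities by at most 0.497%.

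Outlier spots were left out, spots of a probe averaged, and the log2 of the 75th percentile of all non-control spots was subtracted array by array from the log2 intensity. Probes were named through transcript identifiers, current or older symbols in RefSeq's mouse gene table, or else the scanner's name. A gene was tested on its brightest probe that was well above background on at least 3 of 12 arrays and present on at least 2 per group. limma 3.58.1 (R 4.3.3) fitted 4 group means to all 12 arrays, and 6 contrasts were adjusted over 15062 genes. The fit was tested on simulated data. Folds against a dim or saturated group are bounds. Alternatives were other backgrounds, scalings, filters, probe rules, slide and replicate blocks, and leaving out each array. Figures used Python 3.11.15 and matplotlib 3.10.9.

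Probe sequences and positions come from the scanner files. The members, the 12 partner lists and 8 marker lists were chosen with earlier results of these data known. The genes named from a list are up to 4 per comparison, those of largest log2 change among called genes whose groups do not overlap and whose brighter group is above background. A probe that the gene table gives to Ctnna1 carries another name on the array and was left out. The labels mention vehicle, but no array is labelled as vehicle-treated. The number of arrays limits the precision.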

Additional observations from a re-analysis of the deposited data

How the results depend on the processing

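The count of members called between vectors after 4-OHT, 3 of 10, depended on the settings, and the number of all genes called, 2512 in the main setting, is given in brackets. The count was 1 with normexp background (1745), with median scaling (1267), on only the 6 arrays compared (1107) and with the percentile over unflagged spots (900, chosen after seeing the data). It was 0 without the filter on dim probes (358), with the mean of all probes (1788) and with slide as a random (0) or a fixed block (1). With an array left out it was 0 to 3, where 2.04% to 20% of all genes were called. It was 0 without control replicate B or shRNA replicate C after 4-OHT and 1 without control replicate A or shRNA replicate B after 4-OHT. Averaged over treatment, 4 members (4215 of all genes) became 1 with median scaling (2652) or the mean of all probes (3583). They became 0 with slide as a random block (40) or a fixed block (0). For 4-OHT in shRNA cells, 3 (5769 of all genes) became 1 with normexp (4134), without the dim filter (4829) or with slide as a fixed block (4617). They became 1 to 3 when an array was left out, where 30.8% to 42.7% of all genes were called, the 1 being without shRNA replicate B before 4-OHT (30.8%). For 4-OHT in control cells, 3 (6101 of all genes) became 1 with normexp (4322) and 5 with the mean of all probes (5913).

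Among differences called in the main or the alternative fit, signs turned for Hspa9 between vectors on its unsaturated probe (chosen after seeing the data, 0.44 after 4-OHT and 0.35 averaged), for Ctnna1 in shRNA cells with quantile normalization (0.020), for Etf1 with the mean of all probes (-0.49 in shRNA cells and -0.42 in control cells with 4-OHT), and, averaged between vectors with slide as a fixed block, for the Nr3c1 probe A_52_P254174 (0.025) and the Brd8 probe A_52_P676492 (-0.20). Some uncalled differences also changed sign. Between vectors before 4-OHT, Brd8 ranged from -0.08 to 0.31 and Csnk1a1 from -0.30 to 0.0027 over 27 alternatives. Hnrnpa0 between vectors lost its call with slide as a fixed block (-1.38 before, after and averaged), with slide as a random block (-1.57 before and -1.81 after) and before 4-OHT on only the 6 arrays compared (-1.54). Leaving out an array gave -1.76 to -1.30 before 4-OHT, and the call was lost without control replicate B (adjusted p = 0.0652 by limma), control replicate C (0.0691) or shRNA replicate B (0.0537) of the untreated arrays. The causes were not tested.

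Whether the letters A to C pair the samples was not settled: deviations of same-letter arrays correlated with r from -0.09 to 0.305, and 6 of 18 pairs were over 0.1. In 10 of the 18 the best match carried the same letter. With the letter as a replicate block, members called were 3 between vectors after 4-OHT (2751 of all genes) and 0 before 4-OHT (185). For 4-OHT they were 2 in shRNA cells (5944) and 3 in control cells (6247). With vector and letter together as the block, members called for 4-OHT were 4 in shRNA cells (6570 of all genes) and 3 in control cells (6767). Saturation limits Npm1, Hspa9 and Ctnna1, and background limits Sparc.

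Across all genes, the 2512 vector calls after 4-OHT became 1267 with median scaling, 1107 on only the 6 arrays compared, 900 with the percentile over unflagged spots, 358 without the dim filter and 3787 over every probe. Leaving out 1 array gave 308 to 3015, the lowest without treated control replicate B (308), shRNA replicate C (499), shRNA replicate B (603) or control replicate A (1128), and 1353 without shRNA replicate A. The 57 before 4-OHT became 0 with either slide block, 1 on the 6 arrays compared, 2 with normexp, 10 without the dim filter, 20 with the mean of all probes, 26 with median scaling, 168 with quantile normalization, 185 with the letter block and 336 with the strict filter on dim probes. Leaving out 1 array gave 0 (untreated control replicate C) to 496 (untreated shRNA replicate A), with 309 without treated control replicate A 1 to 32 without any of 7 others, and 55 without treated replicate C of either vector. The 4215 averaged calls became 2652 with median scaling and 6538 over every probe. Within 1 slide the 4-OHT calls became 2638 in shRNA cells, against 5769, and 3468 in control cells, against 6101. For the vector difference before 4-OHT, 38.6% of called genes were higher in the main setting, 61.5% with median scaling, 54.8% with quantile normalization and 13% with the percentile over unflagged spots, and averaged over treatment 44.2%, 63.7%, 54.2% and 18.6%.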

Other observations

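Of 31 other tested orthologues of human 5q genes, 4 were higher and 4 lower in shRNA cells after 4-OHT, Hnrnpa0 and Dusp1 among the lower ones. Paip2, which restrains poly(A)-binding protein, was lower by 0.40 (SE 0.0999, adjusted p = 0.0285 by limma), and the DNA repair gene Rad50 was higher by 0.39 (SE 0.091, adjusted p = 0.0227). With 4-OHT 8 rose and 6 fell in shRNA cells, and 8 rose and 8 fell in control cells. The membrane-binding protein Anxa6 rose 16.1-fold in shRNA cells and 19.1-fold in control cells, and the macrophage growth factor receptor Csf1r at least 3.97-fold and 2.66-fold. The growth factor receptor Pdgfrb fell 4.61-fold in shRNA cells and 4.71-fold in control cells.

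Markers of other blood cells were mostly near background. Above background on all arrays of a group were 2 of 5 erythroid markers after 4-OHT and 3 before it, 1 of 5 megakaryocyte markers (2 in treated control cells), 1 to 3 of 5 mast cell markers, 1 or 2 of 4 T cell markers and 1 of 4 B cell markers. No gene of these lists was called between vectors before or after 4-OHT. With 4-OHT the erythroid factor Klf1 fell 4.29-fold in shRNA cells and at least 3.89-fold in control cells, and Epor fell 2.22-fold and 2.18-fold. In each vector 2 of 3 tested erythroid and 1 of 3 mast cell markers fell and 0 rose. Of 2 megakaryocyte markers 1 rose and 1 fell in each vector. Of 2 T cell markers 2 fell in shRNA cells and 1 in control cells, and the 1 B cell marker was not called.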
